A study of Cannabis sativa with 10 samples.

Results

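Levels of 4 MADS-box genes related to known flowering-time regulators were followed across all 5 groups of shoot apices of Cannabis sativa. They were taken by gene ID from 35192 genes in the deposited table: JOINTLESS (LOC115714329), SVP (LOC115721274), SOC1 (LOC115706939) and LOC115725163, which the table describes as a truncated CAULIFLOWER A but matches most closely to Arabidopsis MAF4, and which is called the MAF4-like gene here. Choice by ID used no measured level, although the genes were proposed with results of these data known. All 10 libraries came from shoot apices of genotype A3, with 2 libraries each for vegetative plants, female flowering at weeks 1 and 3, and male flowering at weeks 1 and 3. The labels give STS as the treatment that induced male flowers, read here as silver thiosulfate, an inhibitor of ethylene perception, and name it for no female or vegetative library. Male and female groups therefore also differ in treatment, and sex and treatment cannot be told apart. The labels do not say whether libraries of a group came from separate plants, so the p-values below measure only the spread between these libraries, which may be technical.

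MADS-box proteins are transcription factors that bind DNA as dimers and larger complexes. In Arabidopsis, SVP holds back flowering together with FLC and the related MAF proteins, largely by repressing the florigen gene FT and SOC1, and SOC1 in turn passes day-length, age and gibberellin signals on to the floral identity genes. JOINTLESS is the tomato relative of SVP, needed there for the abscission zone of the flower stalk and for the inflorescence meristem, and MAF4 belongs to the FLC group of repressors.

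The 4 genes lie on separate chromosomes of assembly ASM2916894v1, and the table gives whole gene spans with no exon or UTR positions. JOINTLESS spans chr4:66455691-66461205 on the plus strand, and its protein matched Arabidopsis SVP with 65.71% identity in the authors' deposited table. SVP spans chr2:5148496-5156195 on the plus strand and matched the same Arabidopsis protein with 51.65% identity in the authors' deposited table. Of these 2 members, JOINTLESS thus has the higher identity to Arabidopsis SVP. SOC1 spans chr1:37781610-37793430 on the plus strand, with 65.18% identity to Arabidopsis SOC1 in the authors' deposited table. The MAF4-like gene covers 27152 bp at chr6:67876006-67903157 on the minus strand. At 43.75% in the authors' deposited table, its identity to MAF4 is the lowest of the 4, so the name marks the closest match and no established function.

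Gene levels were FPKM, fragment counts scaled by gene length and library depth, so that levels can be compared between genes. Library totals ran from 603616 to 764672 FPKM, and replicates of a group correlated at 0.98 to 0.992 over the 18309 genes tested. The depth in reads is unknown, so no counting interval can be given. Of 6 stamen and tapetum marker genes, summed levels were 354 and 327 FPKM in the week 3 male libraries and at most 3.82 FPKM in the other 8, in each of which between 2 and 5 of the markers were listed at 0. The 3 carpel and ovule markers summed to 107 and 88.3 FPKM in week 3 female libraries and to between 0.817 and 16.7 FPKM elsewhere. These markers go with the labelled sexes at week 3. At week 1, carpel and ovule markers summed to 11.7 and 14.5 FPKM in female and 16.7 and 10.8 FPKM in male libraries, which overlapped. Stamen and tapetum markers at week 1 summed to 0.998 and 1.19 FPKM in female and to 3.82 and 2.37 FPKM in male libraries, which did not overlap, although 0 of the 6 were called between the sexes at that time in limma.

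JOINTLESS was measured at 23.6 and 26.8 FPKM in the vegetative libraries. It stood at 4.84 and 5.77 FPKM in week 1 female and at 7.76 and 6.33 FPKM in week 1 male libraries. By week 3 it was at 0.434 and 0.611 FPKM in female libraries and at 69.1 and 56.9 FPKM in male ones. No level of one group overlapped that of another, and week 3 male apices were the highest and week 3 female apices the lowest. Group means, as FPKM ± SD with n = 2, were 25.2 ± 2.27 (vegetative), 5.31 ± 0.660 (week 1 female), 7.04 ± 1.01 (week 1 male), 0.523 ± 0.125 (week 3 female) and 63.01 ± 8.67 (week 3 male).

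SVP had similar vegetative levels, 28.7 and 29.5 FPKM. Female week 1 libraries held 14.0 and 10.4 FPKM and week 1 male libraries 13.1 and 11.7 FPKM, so the sexes overlapped. In week 3 female libraries SVP was at 0.181 FPKM in replicate 1 and listed at 0 in replicate 2, while week 3 male libraries held 32.4 and 24.2 FPKM. The week 3 male values lay on both sides of the vegetative ones. Means were 29.1 ± 0.563, 12.2 ± 2.54, 12.4 ± 1.03 and 28.3 ± 5.85 FPKM (SD, n = 2) in vegetative, week 1 female, week 1 male and week 3 male apices.

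SOC1 was the member with the highest level in vegetative and week 1 apices. It was at 43.1 and 39.2 FPKM in vegetative, 45.1 and 55.4 FPKM in week 1 female and 60.9 and 40.1 FPKM in week 1 male libraries. The week 1 male values lay on both sides of the week 1 female ones and reached down into the vegetative range, while both week 1 female values were above both vegetative ones. Lower levels followed at week 3, with 15.9 and 17.2 FPKM in female and 9.72 and 6.62 FPKM in male libraries. Neither week 3 group overlapped any other group. The means were 41.1 ± 2.77, 50.3 ± 7.29, 50.5 ± 14.7, 16.5 ± 0.912 and 8.17 ± 2.19 FPKM (SD, n = 2) in vegetative, week 1 female, week 1 male, week 3 female and week 3 male apices.

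The MAF4-like gene was highest in vegetative libraries, at 25.3 and 27.8 FPKM. Levels at week 1 were 13.7 and 13.5 FPKM in female and 12.1 and 10.4 FPKM in male libraries. Week 3 libraries of both sexes were below 1 FPKM, at 0.610 and 0.979 FPKM in female and 0.523 and 0.978 FPKM in male apices. The sexes thus overlapped at week 3, in contrast to SVP and JOINTLESS. Group means were 26.5 ± 1.81, 13.6 ± 0.146, 11.2 ± 1.20, 0.795 ± 0.261 and 0.751 ± 0.322 FPKM (SD, n = 2) in vegetative, week 1 female, week 1 male, week 3 female and week 3 male apices.

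**Figure D1:**
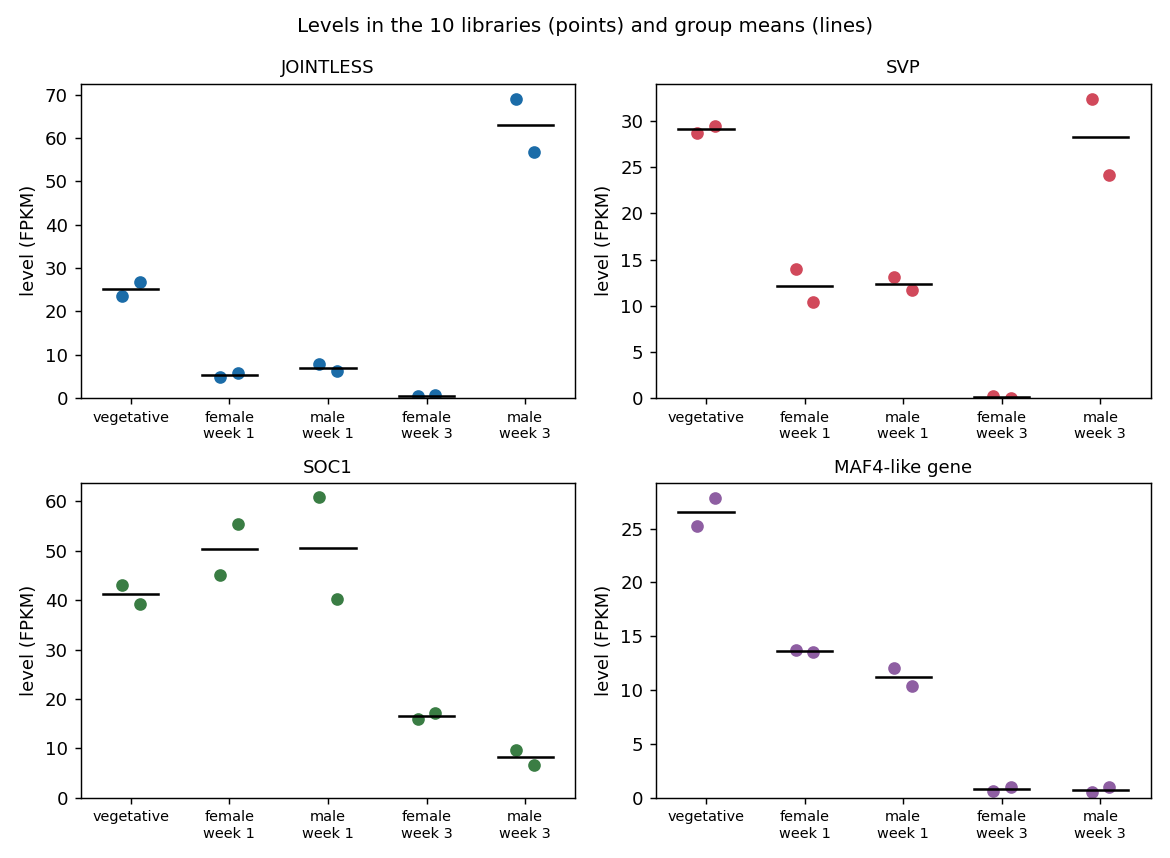
Level in FPKM of JOINTLESS, SVP, SOC1 and the MAF4-like gene (1 panel each, own linear axis from 0) in the 5 groups; points are the 2 libraries of a group and lines their mean. JOINTLESS and SVP are near 0 in week 3 female and high in week 3 male apices, SOC1 is lower at week 3 in both sexes, and the MAF4-like gene is below 1 FPKM in all 4 week 3 libraries.

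Differences between groups were tested with limma on log2(FPKM + 1) across the 18309 genes whose mean reached 1 FPKM in 1 group or more, adjusted by Benjamini-Hochberg, and called at an adjusted p under 0.05; values after ± are standard errors. All 4 genes passed the filter on low values. On this scale the change of a gene that ends near 0 is understated. Apices are mixtures of cell types, so fewer cells that express a gene and less RNA per cell cannot be told apart.

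The comparison of week 1 female with vegetative apices asks what changes as flowers begin to form without STS. The SVP-type genes and the MAF4-like gene were lower at week 1, and SOC1 was not shown to differ. JOINTLESS fell by 2.05 ± 0.16 (limma adjusted p = 0.000200), a 4.74-fold lower FPKM level. SVP fell by 1.20 ± 0.18 (limma adjusted p = 0.00617) and the MAF4-like gene by 0.91 ± 0.17 (limma adjusted p = 0.0159). SOC1 differed by 0.28 ± 0.21, with a 95% interval from -0.20 to 0.76 and a limma adjusted p of 0.580. Thus 3 of 4 members were called lower and 0 higher, where 2.27% of all genes tested were called lower and 2.67% higher. Of 18 leaf photosynthesis genes tested, 5 were called lower and 1 higher in the same comparison, and their part in these falls was not tested. With a pseudocount of 0.1 only JOINTLESS stayed past the threshold, SVP at an adjusted p of 0.114 and the MAF4-like gene at 0.0932. The call of the MAF4-like gene was lost without either vegetative library or either week 1 female library (limma adjusted p = 0.0609, 0.108, 0.102 and 0.113), and that of SVP without week 1 female replicate 2 (limma adjusted p = 0.0622).

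Male week 1 apices were compared with the same vegetative libraries, so the 2 comparisons share their controls. JOINTLESS fell by 1.71 ± 0.16 (limma adjusted p = 0.000478), SVP by 1.17 ± 0.18 (limma adjusted p = 0.00479) and the MAF4-like gene by 1.17 ± 0.17 (limma adjusted p = 0.00370). In FPKM these were 3.57-fold, 2.35-fold and 2.36-fold lower levels. SOC1 differed by 0.26 ± 0.21 (95% interval -0.22 to 0.74, limma adjusted p = 0.574). Of all genes tested, 2.86% were called lower and 3.54% higher, beside 3 and 0 of the 4 members. Of the 18 leaf photosynthesis genes, 10 were called lower and 0 higher here, and their part in these falls was not tested. SVP was at an adjusted p of 0.106 with a pseudocount of 0.1. When limma was fitted to the 4 libraries of the comparison alone, no member was called (limma adjusted p = 0.0871, 0.0871 and 0.0943 for JOINTLESS, SVP and the MAF4-like gene), and 5 genes were called higher and 3 lower in all.

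Between male and female apices at week 1 none of the 4 genes was called, and 0 had an unadjusted limma p under 0.05. JOINTLESS came closest, at 0.35 ± 0.16 higher in male apices (95% interval -0.01 to 0.70, limma adjusted p = 0.836). The male-minus-female difference was 0.03 for SVP (95% interval -0.38 to 0.44), -0.02 for SOC1 (-0.50 to 0.47) and -0.26 for the MAF4-like gene (-0.65 to 0.13). Few genes differed at this stage: 0.12% of all genes tested were called higher in male and 0.0164% lower.

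At week 3 the female apices held little message of 3 of the members. Against vegetative apices JOINTLESS fell by 4.10 ± 0.16 (limma adjusted p = 3.01e-07), which is a 48.2-fold lower FPKM level, and the MAF4-like gene by 3.95 ± 0.17 (limma adjusted p = 4.84e-07), a 33.4-fold lower level. SVP fell by 4.79 ± 0.18 (limma adjusted p = 2.88e-07), with no fold given because 1 library is listed at 0. SOC1, which acts to promote flowering in Arabidopsis, also fell by 1.26 ± 0.21 (limma adjusted p = 0.00153), or 2.49-fold in FPKM. All 4 were called lower, beside 16.8% of all genes tested called lower and 19.8% called higher. With a pseudocount of 0.1 the SVP value was -7.44, so its size on the log scale depends on the pseudocount.

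From week 1 to week 3 of female flowering, all 4 members fell. SVP dropped by 3.59 ± 0.18 (limma adjusted p = 2.70e-06), the MAF4-like gene by 3.03 ± 0.17 (limma adjusted p = 4.73e-06), JOINTLESS by 2.05 ± 0.16 (limma adjusted p = 2.46e-05) and SOC1 by 1.54 ± 0.21 (limma adjusted p = 0.000561). In FPKM, JOINTLESS was 10.2-fold, the MAF4-like gene 17.1-fold and SOC1 3.04-fold lower at week 3. Among all genes tested, 16.5% were called lower and 18.7% higher between these groups. With a pseudocount of 0.1, SVP fell by 6.18 and JOINTLESS by 3.13.

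Male week 3 apices showed a split between the members. JOINTLESS was 1.29 ± 0.16 higher than in vegetative apices (limma adjusted p = 6.45e-05), a 2.50-fold higher FPKM level. SVP was not shown to differ from the vegetative level, with a difference of -0.05 ± 0.18, a 95% interval from -0.46 to 0.35 and a limma adjusted p of 0.813. That interval spans differences of either sign and does not show that the levels were alike. SOC1 fell by 2.22 ± 0.21 (limma adjusted p = 1.13e-05), or 5.04-fold in FPKM, and the MAF4-like gene fell by 3.99 ± 0.17 (limma adjusted p = 3.33e-08), or 35.4-fold. Across all genes tested, 34.8% were called higher and 27.9% lower, so a call by itself was common in this comparison.

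Within male flowering the SVP-type genes rose between weeks 1 and 3, and the other members fell. JOINTLESS rose by 2.99 ± 0.16 (limma adjusted p = 1.42e-07) and SVP by 1.12 ± 0.18 (limma adjusted p = 0.000435), to 8.94-fold and 2.29-fold the week 1 FPKM levels. SOC1 fell by 2.48 ± 0.21 (limma adjusted p = 5.12e-06) and the MAF4-like gene by 2.81 ± 0.17 (limma adjusted p = 4.11e-07), 6.19-fold and 14.98-fold in FPKM. Between these groups 33.8% of all genes tested were called higher and 27.9% lower.

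The direct comparison of male and female apices at week 3 separated the members further. JOINTLESS was 5.39 ± 0.16 higher in male apices (limma adjusted p = 2.37e-09), an FPKM ratio of 120.5, and only 1.27% of the genes tested had a larger absolute difference. SVP was 4.74 ± 0.18 higher in male apices (limma adjusted p = 1.56e-08), and 1.74% of genes had a larger one. SOC1 was lower in male apices, with a difference of -0.96 ± 0.21 (limma adjusted p = 0.00335), 2.02-fold in FPKM. The MAF4-like gene was not shown to differ (-0.04 ± 0.17, 95% interval -0.43 to 0.35, limma adjusted p = 0.853). Calls were frequent here too, at 31.7% of genes higher and 28.6% lower. The JOINTLESS and SVP differences move with the stamen and tapetum markers. Of these, 6 of 6 were called higher in week 3 male than in week 3 female apices. Among them, DYT1, MALE STERILITY 1 and the ABORTED MICROSPORES genes passed the filter only through week 3 male apices. Their direction was thus fixed in advance. The differences also move with carpel and ovule markers, of which 2 of 2 tested were lower in male apices. The part of these tissues in the result was not tested.

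**Figure D2:**
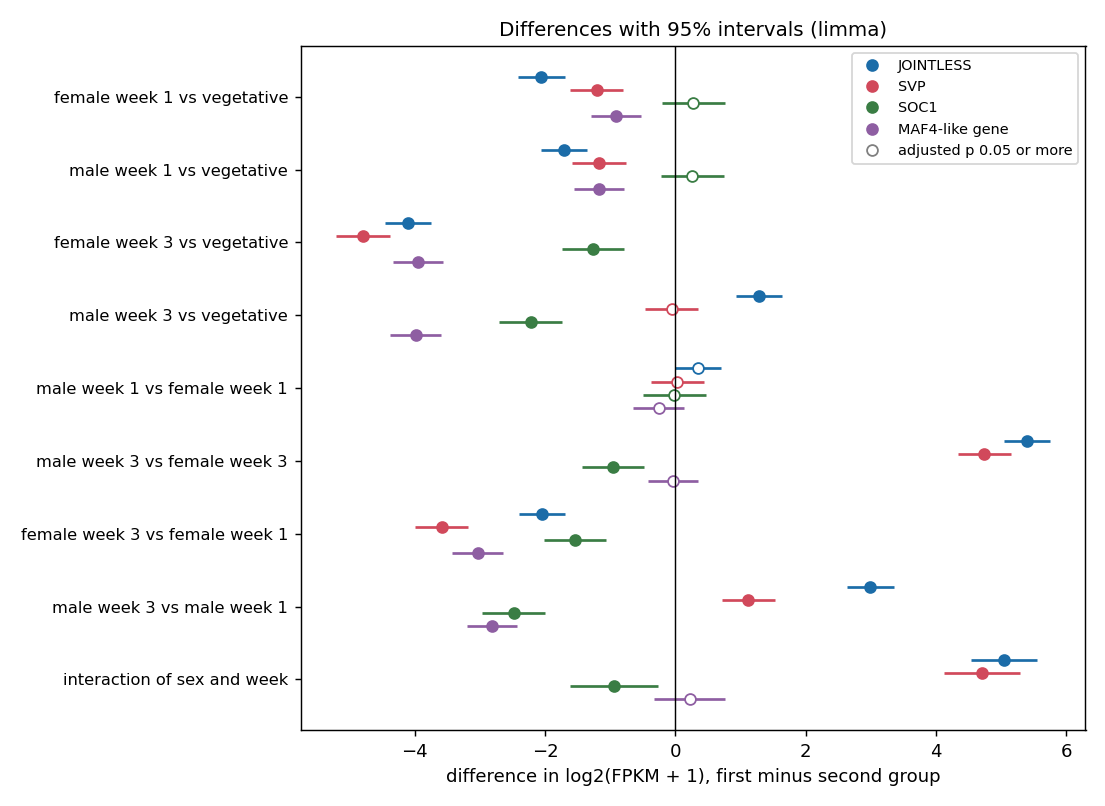
Difference in log2(FPKM + 1) with its 95% interval from limma for each member (colour) in 8 comparisons of groups and in the interaction of sex and week; open circles mark an adjusted p of 0.05 or more. The differences of JOINTLESS and SVP between male and female apices at week 3, 5.39 and 4.74, stand far from 0, while at week 1 all 4 circles are open.

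The interaction of sex and week asks whether the change from week 1 to week 3 differed between male and female flowering. It did so for JOINTLESS, by 5.04 ± 0.22 (limma adjusted p = 1.01e-07), and for SVP, by 4.71 ± 0.26 (limma adjusted p = 4.44e-07), in each case with a fall in female and a rise in male apices. For SOC1, which fell in both sexes, the male fall was larger, with an interaction of -0.94 ± 0.30 (limma adjusted p = 0.0290). The SOC1 call was lost without week 1 female replicate 1 (limma adjusted p = 0.0999), week 1 male replicate 1 (0.0718), week 3 female replicate 1 (0.0617) or replicate 2 (0.0889), or week 3 male replicate 2 (0.116), and with no filter on low values (0.0521). The MAF4-like gene fell in both sexes with no difference shown (0.22 ± 0.24, 95% interval -0.33 to 0.77, limma adjusted p = 0.501). Over all genes tested, 25.8% had a called interaction above 0 and 19.9% one below 0.

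Ordered by group mean, JOINTLESS ran from week 3 male through vegetative, week 1 male and week 1 female to week 3 female, and of these neighbours only the week 1 sexes were not shown to differ. SVP ran from vegetative through week 3 male, week 1 male and week 1 female to week 3 female. There vegetative against week 3 male, and the week 1 sexes, were not shown to differ. For SOC1 the order was week 1 male, week 1 female, vegetative, week 3 female and week 3 male, with no difference shown among the first 3 and each later step called. The MAF4-like gene ran from vegetative through week 1 female, week 1 male and week 3 female to week 3 male. Its step from week 1 male to week 3 female was not among the limma comparisons, and in the authors' deposited table it is a log2 fold change of -3.90 with an adjusted p of 4.08e-16.

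JOINTLESS and SVP are matched to the same Arabidopsis gene, and their summed level and their ratio were examined per library. The sum was 52.3 and 56.3 FPKM in vegetative libraries, 18.8 and 16.2 in week 1 female, 20.9 and 17.98 in week 1 male, 0.615 and 0.611 in week 3 female, and 102 and 81.0 FPKM in week 3 male. The ratio of JOINTLESS to SVP was 0.821 and 0.908 in vegetative and 2.13 and 2.36 in week 3 male libraries. Male week 3 apices thus held more JOINTLESS than SVP message, whereas both vegetative libraries held less. At week 1 SVP was the more abundant of the pair, with ratios of 0.346 and 0.556 in female and 0.592 and 0.544 in male libraries. The week 3 female ratio was 2.40 in replicate 1, a ratio of very low levels, and could not be formed in replicate 2. These ratios were not tested.

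**Figure D3:**
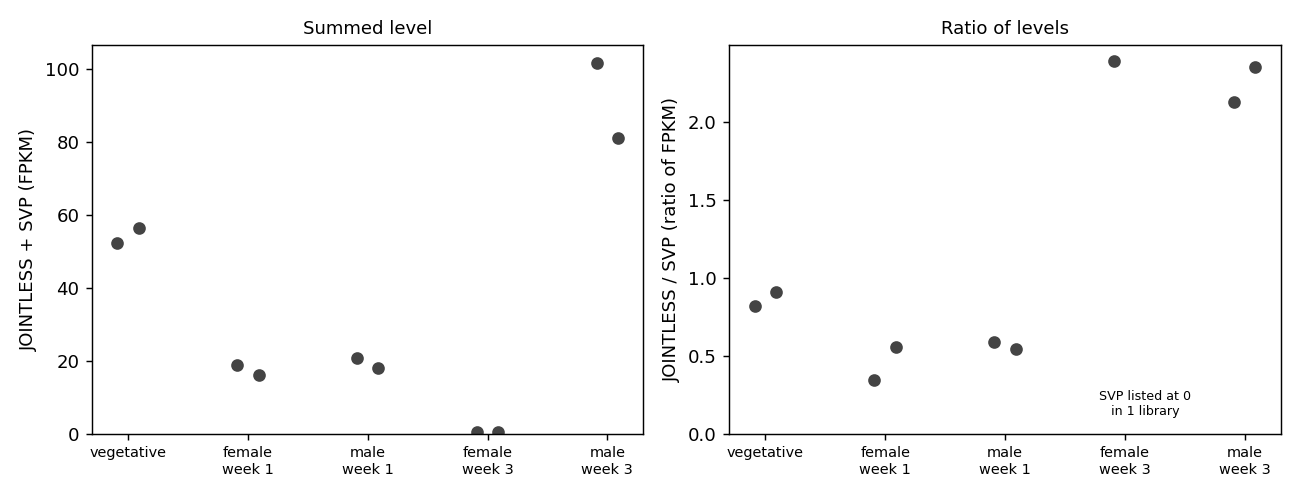
Left, JOINTLESS plus SVP in FPKM, and right, the ratio of JOINTLESS to SVP, with 1 point per library and linear axes from 0. The sum is highest in week 3 male libraries (102 and 81.0 FPKM) and near 0.6 FPKM in week 3 female libraries, and the ratio is above 2 in both week 3 male libraries and below 1 in vegetative and week 1 libraries.

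SOC1 was set beside the MAF4-like gene in the same way, as an activator of flowering beside the match of a repressor. Vegetative libraries had 1.71 and 1.41 times as much SOC1 as MAF4-like message. The ratio was 3.29 and 4.10 in week 1 female, 5.04 and 3.86 in week 1 male, 26.0 and 17.5 in week 3 female, and 18.6 and 6.77 in week 3 male libraries. It was thus lowest in vegetative apices, and at week 3 it rests on MAF4-like levels under 1 FPKM. Set against SOC1, the JOINTLESS and SVP sum was 1.21 and 1.44 times its level in vegetative libraries, between 0.292 and 0.448 times at week 1, 0.0387 and 0.0356 times in week 3 female and 10.4 and 12.2 times in week 3 male libraries.

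Over the 10 libraries on the log2(FPKM + 1) scale, JOINTLESS and SVP had a Pearson correlation of 0.898 and SOC1 and the MAF4-like gene one of 0.881. The other pairs lay between -0.265 (JOINTLESS and SOC1) and 0.487 (SVP and the MAF4-like gene). Libraries of a group share their condition, so these values describe the group pattern and carry no test.

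The nearest relatives of the members in the table, chosen after their values were seen, showed whether a member's pattern was shared. A gene described as JOINTLESS, LOC115720605, lies next to SVP at chr2:5111852-5113893 on the minus strand, 34602 bp away with 0 listed genes between them, and matched Arabidopsis SVP with 51.9% identity in the authors' deposited table. It was low throughout, at 5.10 and 3.34 FPKM in vegetative, 2.49 and 2.05 in week 1 female, 1.53 and 2.31 in week 1 male, 0.409 and 0.203 in week 3 female, and 0.410 and 0.414 FPKM in week 3 male libraries. Unlike its neighbour SVP, it stayed low in week 3 male apices. It fell from vegetative to week 3 male apices by 1.87 ± 0.21 (limma adjusted p = 3.09e-05), and between the sexes at week 3 it differed by 0.12 ± 0.21 (limma adjusted p = 0.644). A JOINTLESS-like gene on chromosome 4, LOC133037323, with 18 listed genes between it and JOINTLESS and 66.53% identity to Arabidopsis SVP in the authors' deposited table, slightly above that of JOINTLESS, did not pass the filter. It was at 0.592 and 0.220 FPKM in vegetative and 0.660 and 0.332 FPKM in week 3 male libraries and listed at 0 in the other 6. How the authors assigned reads that match more than 1 of these relatives is not given in the sources used here.

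AGL42 (LOC115717309), a relative of SOC1 that can promote flowering in Arabidopsis, had a pattern like that of SOC1. Its levels were 29.4 and 29.6 FPKM in vegetative, 37.5 and 33.3 in week 1 female, 34.5 and 29.3 in week 1 male, 10.7 and 11.1 in week 3 female, and 3.33 and 5.23 FPKM in week 3 male libraries. As with SOC1, week 3 libraries were the lowest and male ones lower than female ones. AGL42 was lower in male than in female apices at week 3 (-1.20 ± 0.17, limma adjusted p = 0.000176), and its interaction of sex and week was -1.05 ± 0.24 (limma adjusted p = 0.00538). AGL19 (LOC115716986), another member of the SOC1 group, went the other way, at 6.44 and 5.18 FPKM in female and 9.14 and 10.7 FPKM in week 3 male libraries. It was 0.68 ± 0.22 higher in male apices (limma adjusted p = 0.0221). The remaining gene closest to MAF4, LOC133032954, described as MADS-box transcription factor 23-like, was at 22.1 and 18.4 FPKM in week 3 male libraries and listed at 0 in the other 8. In week 3 male libraries LOC133032954 was thus detected while the MAF4-like gene was below 1 FPKM. In week 3 female libraries the MAF4-like gene was also below 1 FPKM, and LOC133032954 was listed at 0.

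**Figure D4:**
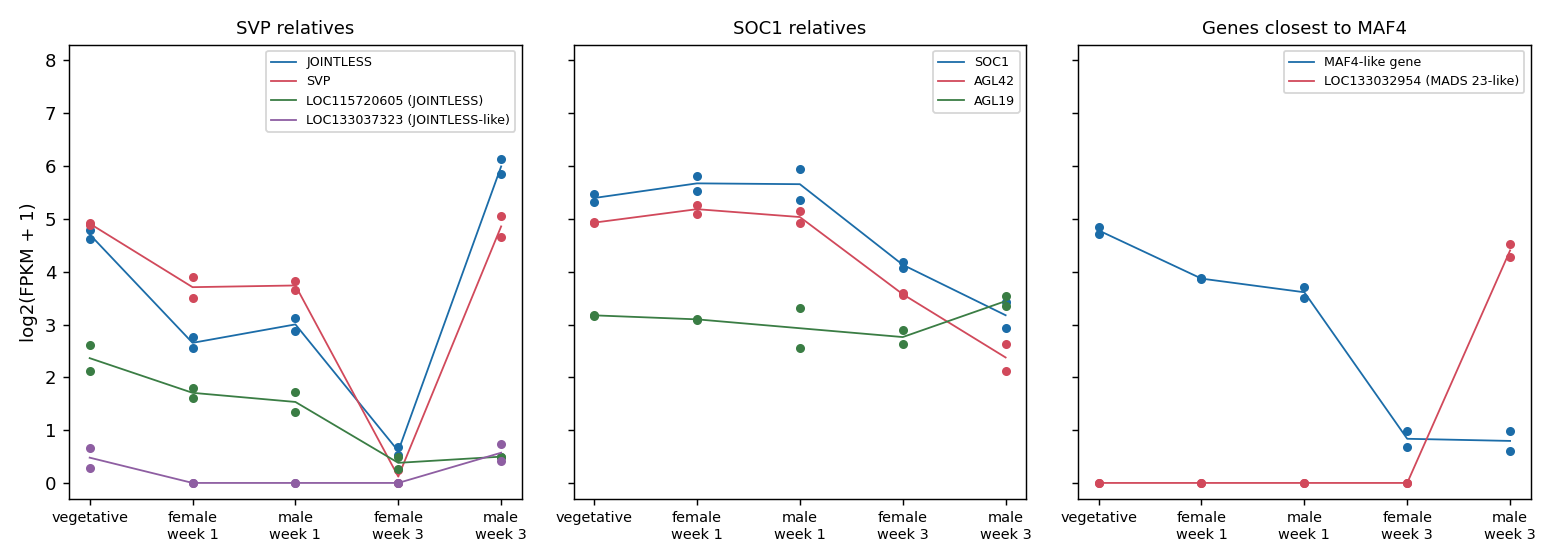
Level as log2(FPKM + 1) of the members and their nearest relatives in the 5 groups, with points for the 2 libraries and lines joining group means. AGL42 tracks SOC1 down to week 3 male, LOC115720605 stays low in week 3 male apices where its neighbour SVP is high, and LOC133032954 is above 0 only in week 3 male libraries.

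The genes most like each member were the 3 with a described product and the highest Pearson correlation over the 10 libraries on log2(FPKM + 1). For JOINTLESS they were gamma aminobutyrate transaminase 3 (LOC115699409, r = 0.969), UDP-glycosyltransferase 89B2-like (LOC115697508, r = 0.969) and lipid phosphate phosphatase 2 (LOC115715013, r = 0.963). These had the same order of groups at the extremes but a much narrower range, with the transaminase going from 12.5 FPKM in week 3 female to 34.95 FPKM in week 3 male apices. SVP was most like fatty acid amide hydrolase (LOC115715011, r = 0.983), cardiolipin synthase (LOC115707788, r = 0.965) and D-3-phosphoglycerate dehydrogenase 1 (LOC115703006, r = 0.960). SOC1 was most like IQ-DOMAIN 17-like (LOC133037713, r = 0.988), probable pectinesterase 68 (LOC115716251, r = 0.986) and early nodulin-like protein 19 (LOC115707950, r = 0.982). For the MAF4-like gene they were plastocyanin (LOC115722357, r = 0.989), a chloroplast stearoyl-acyl-carrier-protein desaturase (LOC115697754, r = 0.989) and beta-glucosidase 44 (LOC115709902, r = 0.987). Plastocyanin carries electrons in photosynthesis. Its mean level was 228 FPKM in vegetative, 132 FPKM in week 1 female and 125 FPKM in week 1 male apices. At week 3 it was 37.3 FPKM in female and 34.1 FPKM in male apices.

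Most leaf photosynthesis genes moved in the direction of the MAF4-like gene at week 3. The 19 chlorophyll a-b binding and Rubisco small subunit genes summed to 25310 and 31360 FPKM in vegetative, 27270 and 20680 in week 1 female, 12850 and 22910 in week 1 male, 7459 and 7121 in week 3 female, and 5006 and 5934 FPKM in week 3 male libraries. The week 1 female sums overlapped the vegetative ones, but the genes in them moved in different directions. A Rubisco small subunit gene (LOC115714527) went from 5561 and 7806 FPKM in vegetative to 10600 and 8243 FPKM in week 1 female libraries. A chlorophyll a-b binding gene (LOC115712676) went from 2214 and 2425 FPKM to 966 and 743 FPKM. In that comparison 5 of the 18 tested were called lower and 1 higher. Of the 18 tested, 18 were called lower in week 3 female than in vegetative apices, beside 16.8% of all genes tested. In week 3 male apices 17 were called lower and 1 higher, beside 27.9% and 34.8% of all genes. A Rubisco small subunit gene (LOC115725363) went up there, from 17.7 and 24.2 FPKM in vegetative to 95.5 and 85.7 FPKM. Their part in the fall of the MAF4-like gene and SOC1 was not tested. JOINTLESS and SVP did not share this pattern in week 3 male apices.

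Among 74 other MADS-box genes, 40 passed the filter and 12 were listed at 0 in every library. Most calls against vegetative apices were in the direction opposite to the calls of SVP and the MAF4-like gene. In week 3 male apices, however, SVP was not called and JOINTLESS was called higher. In week 1 female apices 14 of 40 were called higher and 0 lower (median difference 0.22, against 0.00 over all genes tested), and in week 1 male apices 13 higher and 1 lower (0.33 against 0.005). Some of the 40, such as LOC115702300 and LOC115712087, were below 1 FPKM in vegetative apices and passed the filter only through flowering apices. Such genes could hardly be called lower than in vegetative apices, so the counts against vegetative apices describe the list only. The largest rises were those of genes described as CAULIFLOWER. The gene with that plain description (LOC115704295), whose closest Arabidopsis match in the authors' deposited table is AGAMOUS-like 16 with 48.88% identity, went from 3.77 and 1.20 FPKM in vegetative to 119 and 161 FPKM in week 1 female libraries, up by 5.43 ± 0.34 (limma adjusted p = 6.73e-05). LOC115702300, which carries the same description as the MAF4-like gene but matches FRUITFULL, rose by 5.30 ± 0.19 (limma adjusted p = 3.36e-06). The shared description thus covers genes that moved in opposite directions at week 1.

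In week 3 female apices 19 of the 40 were called higher and 4 lower than in vegetative apices (median 0.50 against 0.015). In week 3 male apices 31 were called higher and 3 lower (2.41 against 0.05). Some of the genes tested, such as LOC115720098 and LOC115713471, were listed at 0 in every library outside week 3 male apices. They passed the filter only through that group, so their direction in any comparison with it was fixed in advance. In the same way FBP24 (LOC115700907), at 11.9 and 9.38 FPKM in week 3 female libraries, passed only through week 3 female apices. The counts and medians that involve week 3 apices of either sex, here and below, include such genes and describe the list only. TM6 (LOC115714657), a relative of the petal and stamen identity gene APETALA3, was at most 0.476 FPKM in vegetative and 170 and 156 FPKM in week 3 male libraries. It rose by 7.07 ± 0.26 (limma adjusted p = 1.02e-08). PMADS 2 (LOC115699531), a relative of PISTILLATA, its partner in stamen identity, rose by 5.18 ± 0.17 (limma adjusted p = 5.08e-09). Between male and female apices at week 3 18 were called higher and 14 lower (0.08 against -0.02), and JOINTLESS and SVP lay on the male side with TM6 at 7.22 ± 0.26 (limma adjusted p = 9.47e-09). From week 1 to week 3, 16 rose and 5 fell in female and 25 rose and 7 fell in male apices (medians 0.175 and 1.398, against 0.025 and 0.029), and the interaction was called above 0 for 18 and below 0 for 13 (-0.02 against 0.01).

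Of 76 other flowering-time genes, 69 passed the filter. Against vegetative apices 10 were called higher and 5 lower in week 1 female apices (median difference 0.02 against 0.00). That was 14.5% and 7.25%, beside 2.67% and 2.27% of all genes tested. In week 1 male apices 10 and 7 were called (0.03 against 0.005), 14.5% and 10.1% beside 3.54% and 2.86%. At week 3 it was 19 and 12 in female apices (0.17 against 0.015), 27.5% and 17.4% beside 19.8% and 16.8%. In male apices it was 31 and 19 (0.29 against 0.05), 44.9% and 27.5% beside 34.8% and 27.9%. FT (LOC115709185), so described and matched to the Arabidopsis florigen gene FT, a target of SVP there, was listed at 0 in both vegetative libraries. It was at 2.42 and 1.74 FPKM in week 1 female, 0.0798 and 1.63 in week 1 male, 0.191 and 0.127 in week 3 female, and 1.54 and 3.11 FPKM in week 3 male libraries. FT was thus low throughout, and in week 3 male apices it was above 1 FPKM together with SVP and JOINTLESS. Other genes also match Arabidopsis FT. HEADING DATE 3A (LOC115697736) was at 0.760 and 0.830 FPKM in week 3 female and 1.12 and 4.12 FPKM in week 3 male libraries. VERNALIZATION 3 (LOC115696989), with 77.51% identity beside 76.47% for LOC115709185, and VERNALIZATION 3-like (LOC115700781) did not pass the filter. LOC115709185 was called higher in week 1 female than in vegetative apices, by 1.61 ± 0.37 (limma adjusted p = 0.0354). Like some other genes of this list, it passed the filter only through flowering apices. It could thus hardly be called lower than in vegetative apices.

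A gene described as bZIP27 (LOC115722367) that matches FD, the partner of FT, went from 0.214 and 0.370 FPKM in vegetative to 7.97 and 10.3 FPKM in week 1 female libraries, up by 2.96 ± 0.22 (limma adjusted p = 0.000179). MOTHER of FT and TFL1 (LOC115707673) fell by 1.85 ± 0.16 in week 1 female against vegetative apices (limma adjusted p = 0.000437), from 3.70 and 3.10 to 0.318 and 0.124 FPKM. CEN-like protein 1 (LOC115697843), which matches BROTHER OF FT AND TFL1, rose by 3.83 ± 0.28 in week 3 female against vegetative apices (limma adjusted p = 9.60e-06), to 142 and 111 FPKM. Another gene with this description, LOC115715930, fell by 3.31 ± 0.50 in that comparison (limma adjusted p = 0.000807). LOC115715658, also so described, went from 0 in both vegetative libraries to 9.41 and 7.95 FPKM in week 3 female ones. CONSTANS-LIKE 6 (LOC115711648) shared the fall of the MAF4-like gene at week 3, with differences from vegetative apices of -3.59 ± 0.31 in female (limma adjusted p = 2.67e-05) and -4.24 ± 0.31 in male ones (limma adjusted p = 1.34e-06). Squamosa promoter-binding protein 1 (LOC115700826), which matches the age-pathway gene SPL4, was lower in male than in female apices at week 3 (-2.25 ± 0.18, limma adjusted p = 2.47e-06), with 11.97 and 10.9 against 64.3 and 52.7 FPKM. FRIGIDA-like protein 4a (LOC115707654), with 31.13% identity to its closest Arabidopsis protein, was higher in male ones by 2.84 ± 0.16 (limma adjusted p = 2.17e-07). LOC115721860, with the same description and 70.93% identity, went the other way, at 106 and 122 FPKM in male and 237 and 241 FPKM in female week 3 libraries. LOC115719432, also so described, was at 16.9 and 20.7 FPKM in male and 11.6 and 11.9 FPKM in female week 3 libraries.

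Between male and female apices at week 3 17 flowering-time genes were called higher and 20 lower (median 0.01 against -0.02). That was 24.6% and 29% of those tested, beside 31.7% and 28.6% of all genes tested. From week 1 to week 3, 12 rose and 10 fell in female apices (0.06 against 0.025). That was 17.4% and 14.5%, beside 18.7% and 16.5% of all genes tested. In male apices 28 rose and 16 fell (0.26 against 0.03), 40.6% and 23.2% beside 33.8% and 27.9%. The interaction was above 0 for 14 and below 0 for 16 (0.07 against 0.01), 20.3% and 23.2% beside 25.8% and 19.9%. At week 1 neither list had a gene called between the sexes in limma, although 8 of 69 flowering-time and 6 of 40 MADS-box genes had an unadjusted p under 0.05, beside 6.02% of all genes tested. Scaling every library to the same sum of FPKM moved the median of all genes to 0.22 in week 3 female against vegetative or week 1 female apices, to -0.27 in male against female apices at week 3 and to -0.23 in the interaction. Calls over all genes then became 5891 higher and 1932 lower in place of 3623 and 3067 for week 3 female against vegetative apices, and 4708 and 7669 in place of 5796 and 5244 for male against female apices at week 3. They became 5795 and 2042 in place of 3423 and 3015 between the female weeks, and 3905 and 5523 in place of 4720 and 3636 in the interaction. The flowering-time medians between the sexes at week 3 and in the interaction then changed sign, to -0.26 and -0.19, as did the MADS-box median between the sexes at week 3, to -0.125, while no call of a member changed. With this scaling the flowering-time genes called higher and lower became 28 and 10 in place of 19 and 12 for week 3 female against vegetative apices, and 19 and 6 in place of 12 and 10 between the female weeks. They became 14 and 28 in place of 17 and 20 between the sexes at week 3, and 11 and 22 in place of 14 and 16 in the interaction. For the MADS-box genes, calls between the sexes at week 3 became 17 higher and 16 lower in place of 18 and 14, and those of the interaction 16 and 16 in place of 18 and 13.

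**Figure D5:**
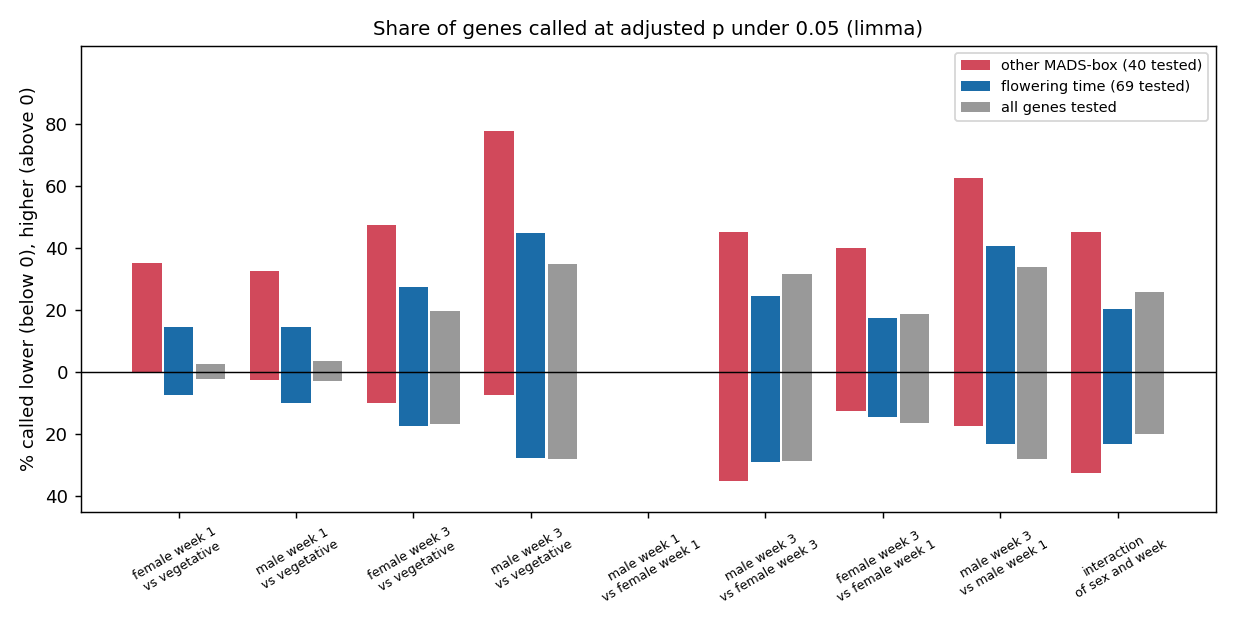
Share of tested genes called higher (bars above 0) or lower (bars below 0) at a limma adjusted p under 0.05 in each comparison, for 40 other MADS-box genes, 69 flowering-time genes and all 18309 genes tested. Calls against vegetative apices among the MADS-box genes are mostly rises (31 higher and 3 lower in week 3 male), whereas SVP and the MAF4-like gene, where called, were lower. In week 3 male apices SVP was not called and JOINTLESS was called higher. Some of these MADS-box genes passed the filter only through week 3 male or other flowering apices. Their direction against vegetative apices was thus largely fixed in advance.

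The authors' deposited table gives its own fold changes between groups, with the same direction as the limma fit for every member called between groups. For SVP between week 3 male and vegetative apices the authors' deposited table lists a log2 fold change of -0.05 with an adjusted p of 0.858. For the MAF4-like gene between the sexes at week 3 the authors' deposited table lists a log2 fold change of 0 with an adjusted p of 1, as it does for 17044 genes in that comparison.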

How the data were processed

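Messenger RNA of shoot apices was measured in 10 libraries, and their titles in the labels gave each group and replicate number. Per the file headers, genes and coordinates are those of assembly ASM2916894v1; the sources used here name no aligner or counting tool. The expression values deposited by the authors carry no unit and behave as FPKM, normalised by gene length and library depth before deposit (RPKM would look alike). The authors also deposited log2 fold changes, p-values and adjusted p-values for each pair of groups, and percent identity to Arabidopsis proteins; these were printed as given.

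The 18309 of 35192 genes whose mean reached 1 FPKM in 1 group or more were taken to log2(FPKM + 1). In R 4.3.3, limma 3.58.1 fitted a mean for each group to the 10 libraries together, leaving 5 residual degrees of freedom, and moderated variances by empirical Bayes (trend, robust). The 8 group comparisons and the interaction were 2-sided contrasts, adjusted by Benjamini-Hochberg over all genes tested, with a threshold of 0.05. The procedure was tested on simulated data. Alternatives were another pseudocount, no filter, 2 rescalings, plain moderation, only the groups compared, a replicate block and leaving out each library. Named genes were the 4 members, up to 4 called genes with the largest change per list and comparison, of which a subset is given, and the 3 genes most like each member; relatives of the members were chosen after their values were seen. The members and gene lists were chosen with earlier results of these data known, and 2 search terms that matched unrelated genes were dropped after group levels were seen.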

Additional observations from a re-analysis of the deposited data

Results flagged for a closer look

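The change from week 1 to week 3 differed between male and female flowering for 3 of the 4 genes, by the limma test of the interaction of sex and week. Such calls were common, with 25.8% of all genes tested called above 0 and 19.9% below 0. For JOINTLESS the male-minus-female difference grew by 5.04 on the log2(FPKM + 1) scale, and for SVP by 4.71, each with a fall between the female weeks and a rise between the male weeks. For SOC1 the interaction was -0.94, a larger fall in male apices, and this call was lost in 5 of the 10 fits that left out 1 library. Male libraries were also the STS-treated ones, so sex and treatment cannot be told apart.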

How the results depend on the processing

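Of 612 alternative values for 36 results of the 4 genes, 587 kept their direction and their side of the threshold, 17 lost the call and 8 changed sign, all of the latter for results that were not called. The cause of these changes was not tested. With a pseudocount of 0.1, the week 1 female against vegetative values were -1.26 for SVP and -0.96 for the MAF4-like gene, which left 1 member called, and SVP in week 1 male was -1.23. With only the libraries of the comparison, week 1 male against vegetative values were -1.71, -1.17 and -1.17 for JOINTLESS, SVP and the MAF4-like gene with 0 called. With no filter on low values the SOC1 interaction was -0.94. Leaving out each library in turn gave -1.40 to -1.01 for SVP, -0.98 to -0.85 for the MAF4-like gene and 1 to 3 called members in week 1 female against vegetative apices. The ranges were -0.03 to 0.56 for SOC1 in week 1 male and -0.26 to 0.15 for SVP in week 3 male against vegetative apices, -0.17 to 0.23 for SVP and -0.31 to 0.28 for SOC1 between the sexes at week 1, -0.23 to 0.15 for the MAF4-like gene between the sexes at week 3, and -1.23 to -0.65 for the SOC1 interaction. Left with 1 library, a group was assumed to vary like the others. Replicate numbers are not said to pair the libraries. Over 10 pairs of groups, replicate differences correlated at -0.417 to 0.215, with 2 pairs over 0.1. With 1 replicate difference per group, these correlations cannot decide whether libraries of the same number share a batch. With the replicate number as a block, no call of a member changed (MAF4-like gene in week 1 female against vegetative apices -0.91, limma adjusted p = 0.0225), and calls over all genes there went from 488 higher and 416 lower to 414 and 359. Depth in reads is unknown, and levels under 1 FPKM are imprecise.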
